A study of Mus musculus and Homo sapiens with 9 samples.

Results

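The 50 DNA replication genes described here were taken by symbol from a fixed list and span origin recognition, helicase loading and activation, DNA synthesis and fork protection. All 50 were found by symbol among 21938 mouse and 20033 human protein-coding genes. A gene was counted as carrying a promoter peak in a list when the midpoint of at least 1 peak lay within 1 kb of any of its transcription start sites (TSSs). Peaks inside the gene but outside these windows were counted apart, as gene-body peaks.

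The study maps R-loops and MCM8 on chromatin with CUT&Tag, in which an antibody brings a transposase to its target so that fragments are cut and sequenced there. S9.6 recognises the RNA-DNA hybrid of an R-loop. The 9 peak lists come from 1 library per group. In mouse embryonic fibroblasts (MEFs), S9.6 was used on Mcm8 wildtype (WT) cells, Mcm8 knockout (KO) cells, control knockdown cells (shControl) and Ddx5 knockdown cells (shDdx5), and 1 further wildtype library had no primary antibody. The MEFs were made from mid-gestation embryos and immortalised with SV40, and the knockdown was delivered by adenovirus. In HEK293, a human embryonic kidney cell line, all of the wildtype genotype, the libraries used mouse IgG, anti-FLAG after transfection of a FLAG-MCM8 plasmid, S9.6 alone, and S9.6 after transfection of a plasmid labelled RNH1. RNH1 is the study's name for RNase H1, the enzyme that digests the RNA of such hybrids, and the label cannot be checked in peak lists. FLAG-MCM8 is an overexpressed, tagged protein. Nothing tells how far 2 libraries of the same group would differ, so no p-value is given, and the values below describe single libraries.

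The S9.6 MEF lists held 6481 (WT) to 12259 (shControl) peaks, the no-antibody list 4314, and the HEK293 lists 12497 (RNH1) to 17178 (IgG). MACS2 gives a fold enrichment and a p for each peak, and together these fix the number of fragments over the summit (the pileup), which solved for 100% of the peaks tried. The weakest listed peaks stood at 6 or 7 fragments in the S9.6 MEF lists, 3 in the no-antibody list and 10 to 14 in the HEK293 lists, so a gene without a peak may hold fewer fragments than that and is not shown to lack signal. The lowest background solved in the same way was divided by the length of the shortest peak in its list. This gave 5729 to 7001 fragments per Mb in the S9.6 MEF libraries, 720 in the no-antibody library and 8314 (FLAG-MCM8) to 11050 (RNH1) in HEK293. The no-antibody list therefore rests on far fewer fragments than the lists beside it. The lowest −log10 p was just above 3 in the MEF lists and just above 5 in the HEK293 lists, so the lists of the 2 species reach to different depths and were not compared in level. As a check on the labelled cells, promoters of 2 or 3 of 10 fibroblast marker genes (20% or 30%, Vim in each) carried a peak in every S9.6 MEF list. Of all genes, 11.3% (WT) to 23.1% (shDdx5) did. None of 7 markers of other cells of an embryo culture had a promoter peak, but 2 in KO, 2 in shControl and 1 in shDdx5 had a gene-body peak. Of the fibroblast markers, 1 had a gene-body peak in each S9.6 MEF list. In HEK293, 2 of 8 marker genes had an S9.6 promoter peak (25%, below the 30.1% of all genes), 1 had an RNH1 peak and none a FLAG-MCM8 or IgG one. Peak presence is not expression, so these counts are weak checks.

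Eukaryotic replication begins where the origin recognition complex (ORC), CDC6 and CDT1 load the MCM2-7 helicase, which CDC45, the GINS complex, MCM10 and the CDC7-DBF4 kinase then turn into a moving fork. Polymerase alpha with primase starts each strand, the RFC clamp loader places PCNA, and polymerases delta and epsilon copy the DNA, while RPA covers single strands and FEN1 and LIG1 join the lagging pieces. Many of these genes are switched on together at the entry into S phase by E2F factors. R-loops form where a nascent RNA pairs again with its template, often at GC-rich promoters where G exceeds C on the non-template strand.

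The promoters of these genes had such a composition. In the 300 bases from 250 before to 50 after the TSS shared by most transcripts, the median GC content was 60.8% in mouse and 63.3% in human, against 55.3% and 61.3% over all protein-coding genes. A promoter with at least 50% GC and an observed over expected CpG ratio of 0.6 or more was called CpG-rich, which took in 38 of the 50 mouse genes and 43 of the 50 human ones (76% and 86%, against 41.9% and 57.7% of all genes). The median GC skew, the excess of G over C on the coding strand in the 500 bases after the TSS, was 0.101 in mouse and 0.0891 in human, against 0.0531 and 0.0515. The E2F motif, searched as TTTGGCGC or TTTCGCGC on both strands, stood in 11 mouse promoters (22%, against 0.985% of all promoters of this length) and in 10 human ones (20%, against 1.47%). Those of CDC6, MCM5, MCM6, POLA1 and TIPIN had it in both species. The NF-Y motif CCAAT was in 60% and 52% (all genes 38.7% and 35.8%), the Sp1 motif GGGCGG in 74% and 62% (43.4% and 54.5%), and the CHR motif TTTGAA in 14% and 10% (16.1% and 12.9%).

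Upstream bases are shown for ORC6, PCNA and ORC1, which are among the genes with a promoter peak in the most lists, to let the peaks be read against sequence. ORC6 (7 of 9 lists) is the smallest ORC subunit, PCNA (7 lists) is the sliding clamp, and ORC1 (5 lists) is an ATPase subunit of ORC. They read 5′ to 3′ on the strand of the gene, leave out annotated exons, and have CCAAT and GGGCGG of either strand in capitals. Human bases come from hg38 and mouse bases from the RefSeq promoter table for GRCm38, in which 41 of the 50 genes had an entry.
PCNA, human, chr20:5126627-5126776, minus strand, the 150 bases before the TSS: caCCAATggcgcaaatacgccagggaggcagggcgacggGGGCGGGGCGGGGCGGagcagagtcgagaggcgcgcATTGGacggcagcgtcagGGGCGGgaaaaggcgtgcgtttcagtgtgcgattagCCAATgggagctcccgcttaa
ORC6, human, chr16:46689519-46689642, plus strand: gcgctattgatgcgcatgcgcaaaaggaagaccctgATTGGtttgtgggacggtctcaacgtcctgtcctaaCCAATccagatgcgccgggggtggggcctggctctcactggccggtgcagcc
Pcna, mouse, chr2:132253315-132253356, minus strand: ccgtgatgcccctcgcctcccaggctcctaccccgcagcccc
ORC1, human, chr1:52404424-52404573, minus strand, the 150 bases before the TSS: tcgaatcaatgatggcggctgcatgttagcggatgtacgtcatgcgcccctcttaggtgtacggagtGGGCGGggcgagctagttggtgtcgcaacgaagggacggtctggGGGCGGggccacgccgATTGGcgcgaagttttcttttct
Orc1, mouse, chr4:108579337-108579422, plus strand: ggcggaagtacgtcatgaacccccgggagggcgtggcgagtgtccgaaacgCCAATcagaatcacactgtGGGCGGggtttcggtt
The PCNA stretch held 4 GGGCGG and 3 CCAAT motifs, with neighbouring GGGCGG motifs sharing a G, and lay under S9.6 and RNH1 peaks. The human ORC6 stretch held 2 CCAAT motifs and no GGGCGG, and lay under FLAG-MCM8, S9.6 and RNH1 peaks. The mouse Pcna stretch held neither and was reached by the shControl peak. ORC1 held 2 GGGCGG motifs and 1 CCAAT in human, under IgG, S9.6 and RNH1 peaks, and 1 of each in mouse, where no peak reached the stretch. Human POLE (7 lists) is not shown. The TSS shared by most of its transcripts is an internal one, and the stretch before it held neither motif and was reached by no peak.

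In each of the 9 lists the share of the 50 genes with a promoter peak was above that of all protein-coding genes, and it was nearer to that of genes with a CpG-rich promoter. WT had a promoter peak at 10 of the 50 genes (20%, against 11.3% of all protein-coding genes and 19.5% of those with a CpG-rich promoter). KO had 18 (36%, against 16.0% and 27.6%), shControl 16 (32%, against 14.7% and 24.3%) and shDdx5 23 (46%, against 23.1% and 39.5%). The no-antibody list had 2 (4%, against 1.24% and 1.51%). In HEK293, IgG had 3 (6%, against 5.59% and 5.79%), which is the list nearest to its background. FLAG-MCM8 had 12 (24%, against 12.0% and 14.6%), S9.6 had 26 (52%, against 30.1% and 39.6%) and RNH1 22 (44%, against 24.6% and 32.9%). The ratio to all genes fell below 1 for IgG in 5 of 10 alternative settings (lowest 0.552), and no peak of the no-antibody list was left at any of the 50 genes with a q of 0.05 or a fold of 4. When members with a CpG-rich promoter alone were set against all CpG-rich genes, WT had 8 of 38 (21.1%, against 19.5%), KO 16 (42.1%, against 27.6%), shControl 14 (36.8%, against 24.3%), shDdx5 20 (52.6%, against 39.5%) and the no-antibody list 2 (5.26%, against 1.51%). Of the 43 human ones, IgG had 3 (6.98%, against 5.79%), FLAG-MCM8 12 (27.9%, against 14.6%), S9.6 24 (55.8%, against 39.6%) and RNH1 21 (48.8%, against 32.9%). The genes also have more annotated TSSs than others (median 5 against 3 in mouse and 8 against 5 in human), which widens the territory in which a peak counts, and counts with 1 TSS a gene are given further on. The median best fold of the genes with a peak was 3.50 for WT (3.81 over all genes), 4.17 for KO (3.90), 4.09 for shControl (3.69), 3.90 for shDdx5 (3.97), 4.80 for FLAG-MCM8 (4.98), 5.02 for S9.6 (4.84) and 4.99 for RNH1 (4.49). By rank in the list, taken from −log10 p here and below, the order was mixed. The median rank was weaker than that of all genes in WT (top 48.7%, against 28.6%), shDdx5 (38.8%, against 26.9%) and FLAG-MCM8 (43.1%, against 36.3%), stronger in KO (16.6%, against 27.5%), shControl (19.1%, against 26.6%) and RNH1 (17.0%, against 30.4%), and level in S9.6 (27.6%, against 27.7%).

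**Figure D1:**
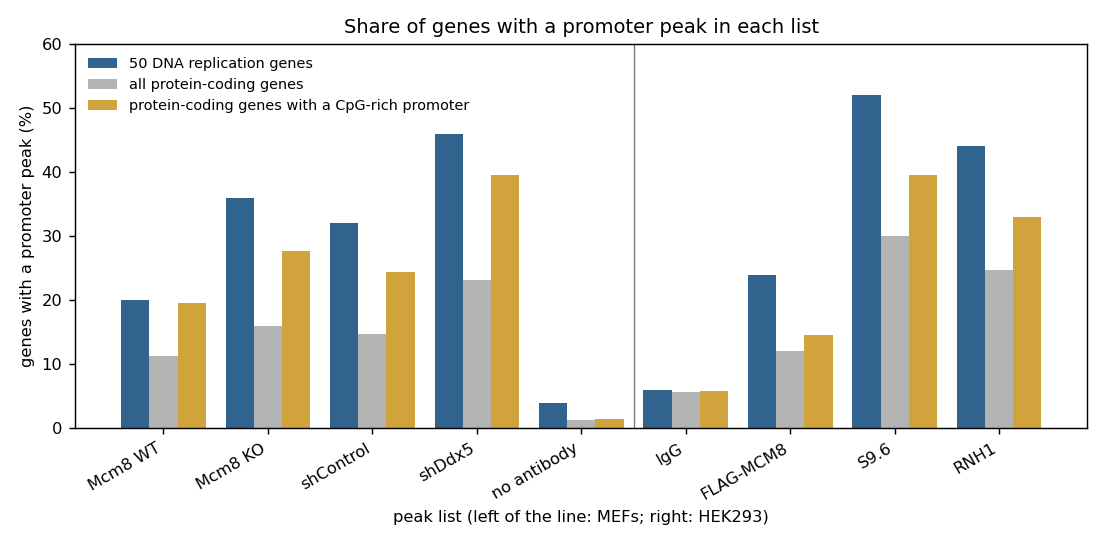
Percentage of genes with a promoter peak (vertical axis) in each of the 9 peak lists (horizontal axis), for the 50 DNA replication genes (blue), all protein-coding genes (grey) and protein-coding genes with a CpG-rich promoter (yellow); 1 library per list and no error bars. The blue bar stands above the grey one in every list, from 4% without antibody to 52% with S9.6 in HEK293, and in WT and IgG it is level with the yellow one.

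In MEFs, 5 genes carried an S9.6 promoter peak in all 4 lists (10%, against 4.19% of all genes and 7.83% of CpG-rich ones). They were Gins2, a subunit of the GINS complex that activates the helicase, Orc6, Mcm4, a subunit of the MCM2-7 ring, Pcna, and Cdt1, which brings the ring to ORC. Another 3 genes had a peak in 3 of these lists, 11 in 2, 16 in 1 and 15 in none.

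Gins2 was the strongest of the 50 by −log10 q in each S9.6 MEF list, though in WT and KO the folds of Orc6 and Mcm4 were higher. Its peak, which covered the TSS (mm10, chr8:120589031-120589513 in WT), had a fold of 5.13 (WT), 5.75 (KO), 6.73 (shControl) or 7.20 (shDdx5). These stood in the top 1.27%, 0.583%, 0.188% and 0.280% of their lists. WT had a pileup of 26 fragments there (95% Poisson interval 17.0 to 38.1), KO 30 (20.2 to 42.8), shControl 34 (23.5 to 47.5) and shDdx5 47 (34.5 to 62.5). These intervals, like all intervals on a pileup here, cover counting error only, and they overlap within each pair. The WT, KO and shControl peaks began at the same base, and no human list had a promoter peak at GINS2. A TSS of a gene not annotated as protein-coding lay within 1 kb of each Gins2 peak (Gm10614) and of each mouse Pcna peak (AV099323).

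Orc6 came next by −log10 q in WT, shControl and shDdx5, with folds of 5.89 (WT), 6.23 (KO), 4.88 (shControl) and 6.41 (shDdx5), at 15, 15, 14 and 21 fragments. Mcm4 had folds of 5.15, 6.45, 4.32 and 6.02 in the same order, at 16, 18, 11 and 17 fragments. Both peaks had the TSS of a divergent gene within 1 kb, Vps35 beside Orc6 and Prkdc beside Mcm4. The Orc6 summits lay in its UTR in WT, shControl and shDdx5 and upstream of it in KO. Pcna had folds of 3.84, 4.85, 5.23 and 4.56, at 11, 14, 12 and 14 fragments. Cdt1 had 3.02, 3.88, 3.29 and 4.34, at 12, 16, 15 and 24 fragments. Its WT summit lay at −806 bases from the TSS and the peak did not overlap the other 3, whose summits lay at −240, −319 and −343. At the same place the no-antibody list had a Cdt1 peak of 4 fragments (fold 3.87, 1.09 to 10.2), whose −log10 q was 0.894, so it did not reach a q of 0.05.

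**Figure D2:**
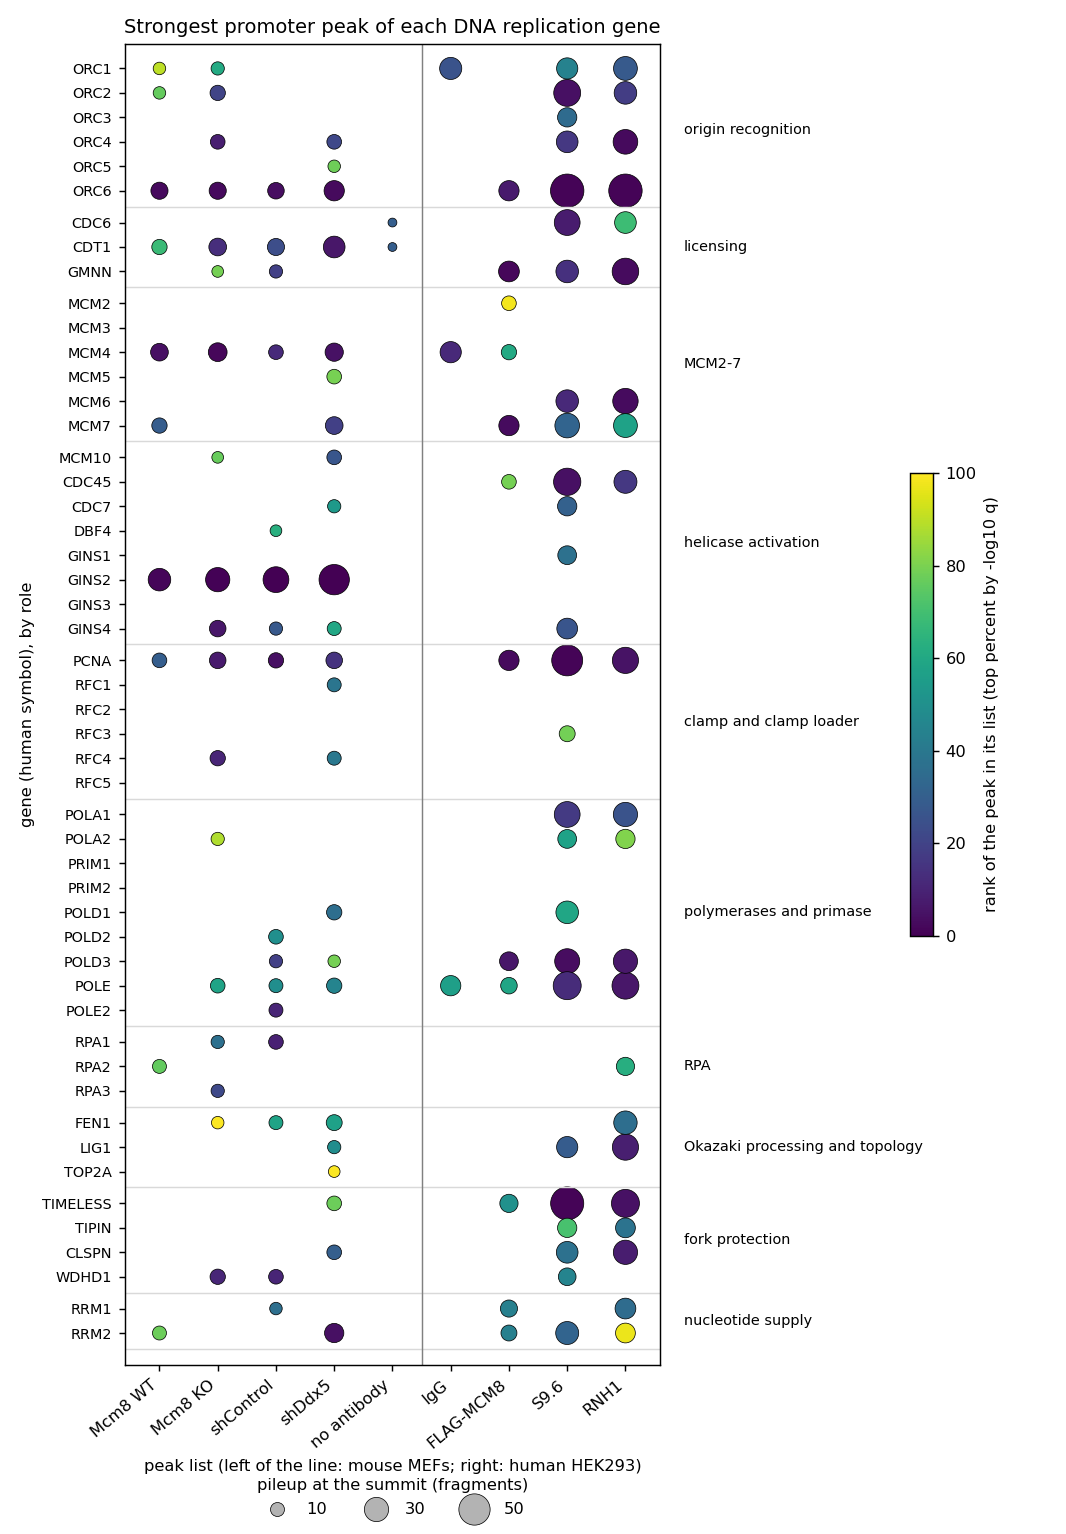
Strongest promoter peak of each of the 50 genes (rows, by role, under the human symbol) in each of the 9 lists (columns; mouse MEFs left of the line, human HEK293 right of it). Dot area gives the pileup at the summit in fragments, and no dot means no listed peak. Colour gives the rank of the peak in its list by −log10 p, dark for the strongest, though the colour bar is labelled −log10 q. GINS2 has large dark dots in the 4 S9.6 MEF columns and none in HEK293, and ORC6 and PCNA have dots in 7 columns each.

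By role, the ORC genes had 11 of 24 possible promoter peaks in the S9.6 MEF lists (6 genes in 4 lists), the licensing genes 6 of 12, the helicase activators 11 of 32, MCM2-7 7 of 24, the clamp and its loader 7 of 24, and the polymerases and primase 9 of 36. The RPA genes had 4 of 12, the genes of lagging-strand processing and topology 5 of 12, the fork protection genes 4 of 16 and ribonucleotide reductase 3 of 8. In these lists 11.3% (WT) to 23.1% (shDdx5) of all protein-coding genes had a promoter peak. Of those with a CpG-rich promoter, 19.5% to 39.5% did. The groups are small, and differences between roles were not tested. Within a group the peaks were uneven. Of the MCM2-7 ring, Mcm4 had 4 of the 7, Mcm7 had 2, Mcm5 had 1, and Mcm2, Mcm3 and Mcm6 had none. Of the clamp loader, Rfc4 had 2 and Rfc1 had 1, and Rfc2, Rfc3 and Rfc5 had none. The primase genes Prim1 and Prim2 had none in any list, in either species.

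The KO list, set against WT to see what the loss of MCM8 changes, had promoter peaks at 8 more of the 50 genes. The genes with a peak in both were 7, in KO only 11 and in WT only 3. Over all 21938 genes these counts were 1460, 2057 and 1023. Of the members with a WT peak 70% had one in KO (58.8% over all genes), and of those with a KO peak 38.9% had one in WT (41.5%). The lists differed by 16 percentage points, where all protein-coding genes differed by 4.71 points. Among CpG-rich promoters the difference was 21.1 points for the members and 8.09 for all genes. In KO only were Orc4, Gmnn, the inhibitor of CDT1, Mcm10, Gins4, Rfc4, Pola2 and Pole (subunits of polymerases alpha and epsilon), Rpa1, Rpa3, the flap nuclease gene Fen1, and Wdhd1, which links the helicase to polymerase alpha. In WT only were Mcm7, Rpa2 and Rrm2, the regulated subunit of ribonucleotide reductase. The strongest KO-only peaks were those of Gins4 (fold 5.11, 14 fragments, top 6.02%), Orc4 (5.20, 11 fragments, top 8.54%), Rfc4 (4.81, 12 fragments, top 10.2%) and Wdhd1 (4.75, 12 fragments, top 10.7%). WT also had a peak at Wdhd1 (fold 3.54, 10 fragments), with its summit 974 bases past a TSS and its midpoint just beyond 1 kb. With summits in place of midpoints it counted as a promoter peak, which made the WT count 11 and the difference 7. The weakest KO-only peak was that of Fen1 (fold 2.64, 8 fragments, top 99.4%). Of the WT-only peaks, Mcm7 had a fold of 3.71 (12 fragments), Rpa2 of 3.07 (10) and Rrm2 of 3.04 (10).

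Presence in a list turns on a few fragments at this depth. The 2 S9.6 MEF lists without a knockout or Ddx5 knockdown, WT and shControl, differed as well. They had 10 and 16 of the 50 genes (against 11.3% and 14.7% of all genes). WT and shControl are different groups, so this is not a spread between replicates. At the 5 genes whose WT and KO peaks overlapped, the pileup was higher in KO at Mcm4, Orc2, Gins2 and Pcna and equal at Orc6, and the Poisson intervals overlapped at all 5. The median KO to WT ratio was 1.15, against 1.00 over 1309 genes with overlapping peaks. With a fold of at least 4 asked for, WT kept 3 genes (4.48% of all genes) and KO 9 (7.02%). The KO list is also longer than the WT list over the genome, 9605 peaks against 6481. When both were held to the same number of strongest peaks, KO had 14 genes (against 13.4% of all genes) and WT 10 (against 11.3%), so the difference went from 8 to 4.

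The shDdx5 list, set against shControl to see what the loss of the RNA helicase DDX5 changes, had promoter peaks at 7 more of the 50 genes. There were 9 genes with a peak in both, 14 in shDdx5 only and 7 in shControl only. Over all 21938 genes these counts were 2144, 2924 and 1090. Of the members with a shControl peak 56.3% had one in shDdx5 (66.3% over all genes), and of those with a shDdx5 peak 39.1% had one in shControl (42.3%). The difference between the lists was 14 percentage points, against 8.36 over all genes. Among CpG-rich promoters it was 15.8 points for the members and 15.2 for all genes. In shDdx5 only were Orc4, Orc5, Mcm5, Mcm7, Mcm10, Cdc7, Rfc1, Rfc4, Pold1, the catalytic subunit of polymerase delta, Lig1, Top2a, Timeless and Clspn (both of the fork protection complex), and Rrm2. In shControl only were Gmnn, Dbf4, Pold2, Pole2, Rpa1, Wdhd1 and Rrm1. Rrm2 had the strongest of the shDdx5-only peaks (fold 5.73, 19 fragments, top 4.16%), followed by Mcm7 (fold 3.95, 16 fragments, top 19.0%). Top2a had the weakest (fold 2.73, 7 fragments, top 99.6%). Of the shControl-only peaks, Rpa1 had a fold of 4.48 (11 fragments) and Wdhd1 of 4.34 (11), and Pole2 had 10 fragments, all among the top 9.20 to 10.4% of the list. With a fold of at least 4 asked for, both lists kept 9 genes and the difference was 0, where all genes had 5.58% in shControl and 11.3% in shDdx5. With the same number of strongest peaks, shDdx5 had 16 genes (against 17.6% of all genes) and shControl 14 (against 10.9%), a difference of 2.

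Where shDdx5 and shControl peaks overlapped, the pileup was higher in shDdx5 at 8 of 9 genes. Cdt1 had 24 fragments against 15, Orc6 21 against 14, Gins2 47 against 34 and Mcm4 17 against 11. At Pold3 the order was the other way, 8 against 9. The median ratio was 1.30, near that of 1823 genes with overlapping peaks (1.38, with shDdx5 higher at 84.3%), so the same direction was seen over promoters of the whole genome. The intervals of each of the 9 pairs overlapped. The lowest background, in the units of the pileup, was 1.67 fragments in shDdx5 and 1.45 in shControl. Divided by the shortest peak, 239 and 212 bp, it was 7001 and 6822 fragments per Mb. How much of the pileup ratio goes with this background was not tested.

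**Figure D3:**
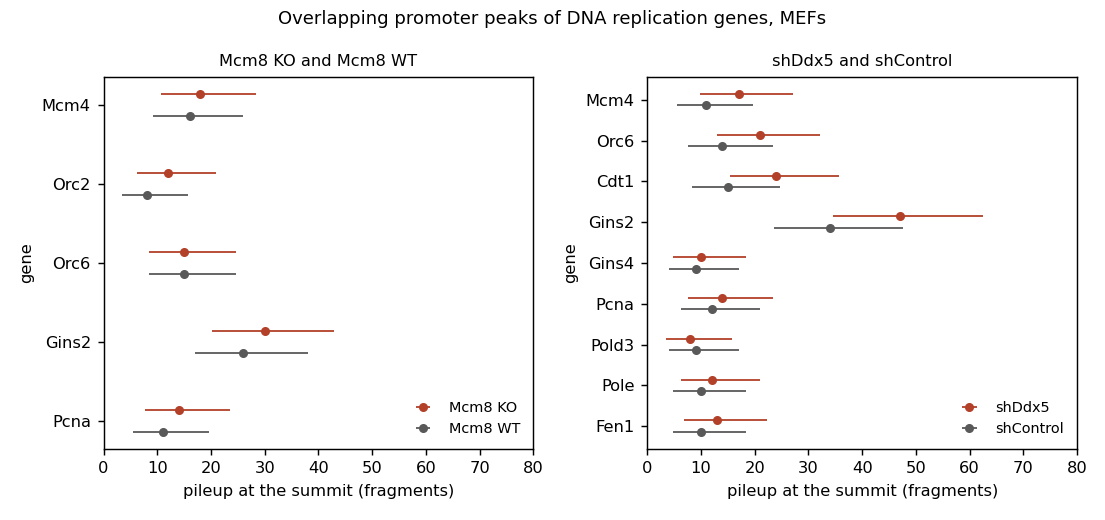
Pileup at the summit in fragments (horizontal axis) of promoter peaks that overlap between KO (red) and WT (grey) at 5 genes, left, and between shDdx5 (red) and shControl (grey) at 9 genes, right. Points are single libraries and bars are 95% Poisson intervals, which overlap in every pair; the red point lies to the right at 4 of 5 and 8 of 9 genes.

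Mcm10, Orc4 and Rfc4 had a promoter peak in KO and shDdx5 but in neither WT nor shControl (3 genes, 6%, against 2.95% of all genes). None of the 50 showed the converse (0.365% of all genes). Orc4, a subunit of ORC, had folds of 5.20 in KO and 4.49 in shDdx5, both at 11 fragments, and its peaks overlapped. They lay by the divergent gene Mbd5. Rfc4, of the clamp loader, had 4.81 and 3.90 at 12 and 10 fragments, and its peaks overlapped too. Mcm10, which binds the assembled helicase, had a KO peak of 7 fragments at its outermost TSS (fold 3.34) and shDdx5 peaks at internal starts 11509 and 19421 bases into the gene (folds 2.99 and 4.27), so its 2 lists did not share a peak.

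In HEK293, the FLAG-MCM8 list asks where the tagged protein was found. It held promoter peaks at 12 of the 50 genes and the IgG list at 3, with MCM4 and POLE in both lists. The strongest were GMNN (fold 8.15, 22 fragments, top 1.76%), PCNA (7.50, 21 fragments, top 2.58%), MCM7 (7.31, 21 fragments, top 2.74%), POLD3 (6.76, 18 fragments, top 5.99%) and ORC6 (5.99, 21 fragments, top 6.92%). RRM2, RRM1, MCM4, POLE, TIMELESS and CDC45 had folds of 4.27 to 4.98. MCM2 had the weakest (3.73, 11 fragments, top 98.4%).

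Of the 12 genes, 9 also had an S9.6 promoter peak: CDC45, GMNN, MCM7, ORC6, PCNA, POLD3, POLE, RRM2 and TIMELESS (18% of the 50, against 7.39% of all genes; among CpG-rich promoters 20.9% against 9.90%). All 9 had one in the RNH1 list as well (18%, against 5.81% of all genes). At POLE and RRM2, however, the RNH1 promoter peaks overlapped no S9.6 peak. MCM2, MCM4 and RRM1 had FLAG-MCM8 without S9.6. Of the genes with a FLAG-MCM8 promoter peak 75% had an S9.6 one, against 61.5% over all genes, and of those with S9.6 34.6% had FLAG-MCM8, against 24.6%. The peaks themselves overlapped, by at least 1 bp, at GMNN, MCM7, ORC6, PCNA and RRM2. At GMNN, the gene of geminin, the folds were 8.15 with FLAG-MCM8, 5.62 with S9.6 and 7.24 with RNH1, at 22, 26 and 36 fragments with summits in a UTR exon or the intron after it (hg38, chr6:24774988-24775586 for FLAG-MCM8). At ORC6 they were 5.99, 8.89 and 8.56, at 21, 57 and 57 fragments, upstream of the gene on the side of VPS35. At MCM7 they were 7.31, 3.70 and 3.19, at 21, 31 and 29 fragments, near AP4M1.

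At PCNA the FLAG-MCM8 promoter peak lay inside the gene. It (chr20:5119557-5120217, summit in a coding exon) was at an alternative TSS, 6932 bases past the outermost one. The strongest S9.6 peak lay there too, with a fold of 9.38 and 49 fragments, and an RNH1 peak with a fold of 5.57 and 28 fragments. The Poisson intervals were 36.3 to 64.8 for S9.6 and 18.6 to 40.5 for RNH1. At the outermost TSS, the stretch printed above, S9.6 had a fold of 7.06 and 41 fragments and RNH1 6.18 and 35, and FLAG-MCM8 had no peak on that stretch. Another FLAG-MCM8 peak overlapped the far end of this S9.6 peak, but its midpoint lay beyond 1 kb of the PCNA start and it was not counted. At CDC45, POLD3, POLE and TIMELESS the FLAG-MCM8 and S9.6 peaks lay at different places. TIMELESS had its S9.6 peak at the outermost start (fold 7.91, 56 fragments) and its FLAG-MCM8 peak over a coding exon 24381 bases past it (4.30, 17 fragments).

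**Figure D4:**
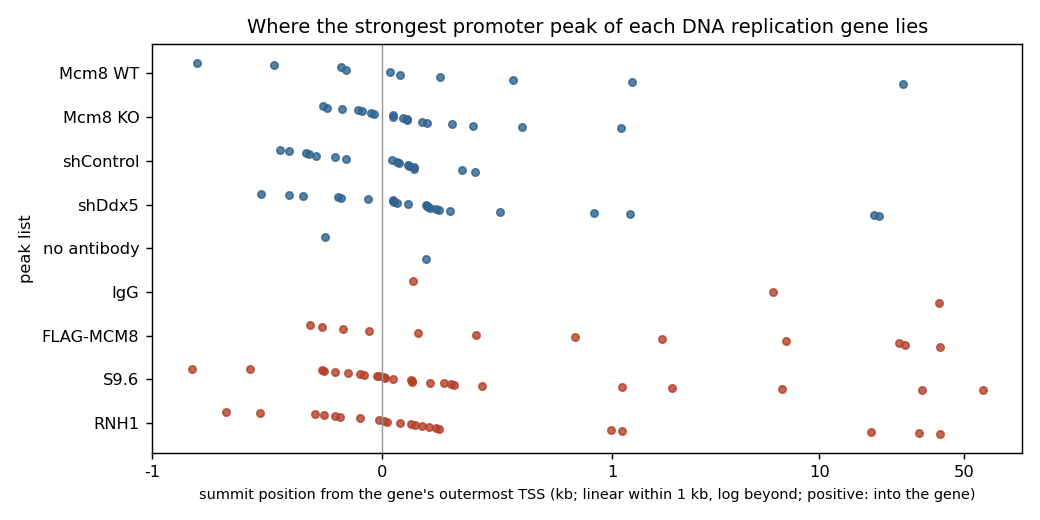
Position of the summit of the strongest promoter peak of each gene in each list, from the gene's outermost TSS in kb (linear within 1 kb, logarithmic beyond, positive values into the gene); 1 point a gene, MEF lists in blue and HEK293 lists in red. Most points lie within 1 kb, 21 of 26 for S9.6 and 16 of 16 for shControl, while 5 of 12 FLAG-MCM8 points and 2 of 3 IgG points lie farther in, up to 38.2 kb.

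Because many genes have internal starts, the counts were repeated with 1 TSS a gene, a choice made after the data were seen. With only the outermost TSS, 7 of the 50 genes had a FLAG-MCM8 promoter peak, 22 had S9.6, 19 RNH1 and 1 IgG, against 12, 26, 22 and 3 with every TSS. The shares of all genes were then 7.56%, 23.3%, 18.5% and 2.09%, so the ratio to all genes was 1.85 for FLAG-MCM8, 1.89 for S9.6, 2.06 for RNH1 and 0.959 for IgG. Those with both FLAG-MCM8 and S9.6 went from 9 to 4. Of the MEF lists, WT then had 8 such genes, KO 17, shControl 16 and shDdx5 20. The genes whose strongest FLAG-MCM8 peak lay beyond 1 kb of the outermost start were CDC45, PCNA, POLE, RRM2 and TIMELESS.

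The S9.6 and RNH1 lists, which ask what the enzyme that removes hybrids changes, differed by 4 of the 50 genes: 19 genes had a promoter peak in both, 7 in S9.6 only and 3 in RNH1 only. Over all 20033 genes these counts were 3496, 2526 and 1438. The peaks of both lists overlapped at 16 of the 19 genes and lay apart at POLE, RRM2 and TIPIN. The difference of 8 percentage points compares with 5.43 over all genes. Of the genes with an S9.6 peak 73.1% had one in RNH1 (58.1% over all genes), and of those with RNH1 86.4% had one in S9.6 (70.9%). In S9.6 only were ORC3, CDC7, GINS1, GINS4, RFC3, POLD1 and WDHD1, with folds of 3.37 to 5.21 and 13 to 26 fragments, and they ranked between the top 26.5% and the top 78.9% of the list. In RNH1 only were FEN1, RPA2 and RRM1. FEN1 had a fold of 3.77 at 28 fragments and RPA2 of 4.27 at 17.

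The strongest S9.6 peaks were those of ORC6, PCNA and TIMELESS (folds 8.89, 9.38 and 7.91, top 0.937%, 1.14% and 1.16%), and of RNH1 those of ORC6, ORC4 and MCM6 (8.56, 9.13 and 7.98, top 0.872%, 2.57% and 2.98%). At 15 genes the strongest peaks of both lists overlapped. The pileup was higher with S9.6 at 7 of them, higher with RNH1 at 7 and equal at ORC6 (57 and 57), with a median ratio of 1.00, against 1.02 over 2976 genes. TIMELESS had 56 fragments with S9.6 and 40 with RNH1, ORC2 37 and 26, and CDC45 38 and 27. LIG1, which seals nicks, had 23 with S9.6 and 35 with RNH1, GMNN 26 and 36, and MCM6 26 and 33. The intervals overlapped in all 15 pairs. PCNA, whose strongest peaks of the 2 lists lay at different starts and so is not among the 15, was higher with S9.6 at both starts. These pairs are limited to genes with overlapping peaks in both lists, so the 7 genes with S9.6 only could not show a loss here. The same holds for POLE, RRM2 and TIPIN. A change common to the whole genome would not show in peak lists scaled to their own background. Both HEK293 comparisons with IgG use the same IgG library, and both comparisons of S9.6 the same S9.6 library, so their values are not independent of each other.

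**Figure D5:**
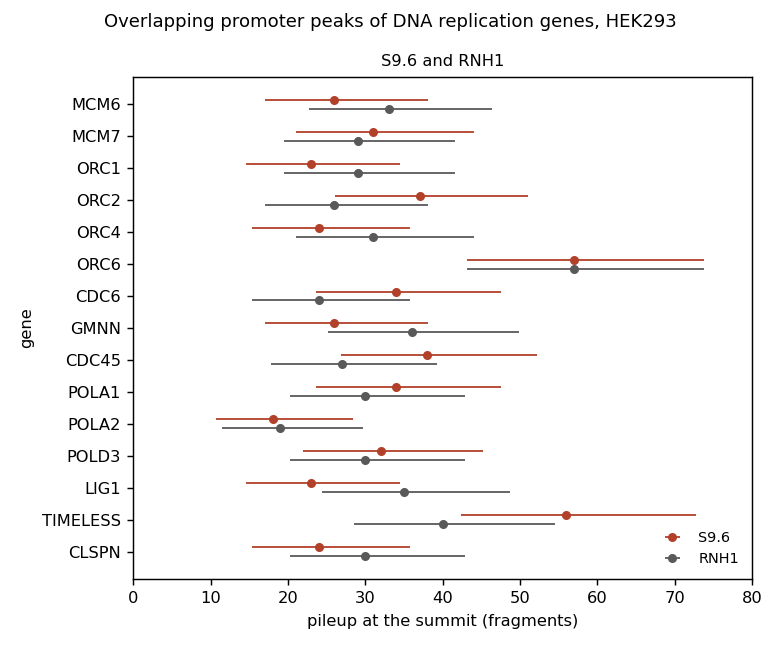
Pileup at the summit in fragments (horizontal axis) at the 15 genes whose strongest S9.6 (red) and RNH1 (grey) promoter peaks overlap in HEK293; points are single libraries and bars 95% Poisson intervals. S9.6 lies to the right at 7 genes, RNH1 at 7, both are at 57 fragments at ORC6, and the bars of each pair overlap.

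The controls touched few of the 50 genes. Without antibody, Cdc6, the loader of the helicase, and Cdt1 had promoter peaks of 4 fragments each, with a q above 0.05 in both, and Rfc2 had 1 intronic peak of 3 fragments. The Cdc6 peak overlapped no S9.6 MEF peak. With IgG, ORC1 had a promoter peak of 25 fragments (fold 4.28) that overlapped its S9.6 (23 fragments, 4.06) and RNH1 (29 fragments, 3.96) peaks, so at ORC1 S9.6 stood no higher than IgG. POLE had an IgG peak of 21 fragments over a coding exon 38009 bases into the gene, which overlapped its FLAG-MCM8 peak of 14. MCM4 had an IgG peak of 23 fragments in an intron 5989 bases past the outermost start, away from its FLAG-MCM8 peak, with its summit at −171 bases from that start and near PRKDC. The 24 S9.6 genes other than ORC1 and POLE and the 10 FLAG-MCM8 genes other than MCM4 and POLE had no IgG promoter peak.

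Gene-body peaks were at a smaller share of the 50 than of all genes in the MEF lists and IgG. The share was larger in RNH1 and near that of all genes in S9.6 and FLAG-MCM8. The genes with at least 1 were 3 in WT (6%, against 8.77% of all genes), 3 in KO (6%, against 12.1%), 4 in shControl (8%, against 15.5%), 3 in shDdx5 (6%, against 13.0%) and 1 without antibody (2%, against 6.62%). In HEK293 they were 7 with IgG (14%, against 22.1%), 10 with FLAG-MCM8 (20%, against 18.3%), 9 with S9.6 (18%, against 19.4%) and 13 with RNH1 (26%, against 16.6%). With peaks within 3 kb of a TSS taken out, RNH1 had 8, and the share of all genes is not given for this setting. POLA1, the catalytic subunit of polymerase alpha, had 5 with IgG, 5 with FLAG-MCM8, 6 with S9.6 and 3 with RNH1, all intronic. The strongest of them was an IgG peak, at 33 fragments (fold 5.39, top 2.63%). Mouse Pola1 had 2, both in shDdx5. RFC3, of the clamp loader, had an intronic FLAG-MCM8 peak with a fold of 8.18 and 22 fragments (top 1.63%) that overlapped an S9.6 peak of 14 fragments. Near the start of POLE, an intronic peak stood in both S9.6 (54 fragments, fold 3.62) and RNH1 (64 fragments, 3.91). Human RRM2 had 2 FLAG-MCM8, 4 S9.6 and 3 RNH1 intronic peaks.

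Taking the species together, 18 of the 50 genes had an S9.6 promoter peak in at least 1 MEF list and in HEK293 (36%, against 21.3% of 15744 genes with the same symbol), 17 in MEFs only, 8 in HEK293 only and 7 in neither. Those of both were MCM7, ORC1, ORC2, ORC4, ORC6, GMNN, CDC7, GINS4, PCNA, POLA2, POLD1, POLD3, POLE, LIG1, TIMELESS, CLSPN, WDHD1 and RRM2. In neither were MCM2, MCM3, GINS3, RFC2, RFC5, PRIM1 and PRIM2. Over all genes, a gene with an MEF peak had a HEK293 peak in 49.8% of cases and a gene without one in 20.8%. Among the 50 these shares were 51.4% (of 35 genes) and 53.3% (of 15 genes). With so few genes from single libraries, whether their peaks in MEFs and HEK293 go together was not tested. The 6 genes MCM3, RFC5, PRIM1, GINS3, RFC2 and PRIM2 had no promoter peak in any of the 9 lists.

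The summits of promoter peaks lay close to a TSS, within 250 bases in 7 of 10 WT, 16 of 18 KO, 11 of 16 shControl, 17 of 23 shDdx5, 21 of 26 S9.6 and 16 of 22 RNH1 genes. Those at or before the nearest TSS were 5, 10, 7, 14, 18 and 12. A promoter shared with an opposite coding gene within 1 kb was found at 15 of the 50 genes in each species, among them Orc1 with Prpf38a, Orc4 with Mbd5, Mcm7 with Ap4m1 and Wdhd1 with Socs4, and another coding TSS stood within 1 kb of the peak at 9 of the 18 KO genes and 13 of the 26 S9.6 genes. CUT&Tag fragments carry no strand here, so such peaks were counted for these genes without being theirs alone. Human promoters without an S9.6 peak had a median skew of 0.0661 (24 genes) and those with one 0.101 (26 genes). In mouse the order was the other way, 0.107 (15 genes) and 0.0949 (35 genes).

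A further list of 30 replication genes outside the 50, such as histone chaperones, nucleotide enzymes and accessory helicases, was read for comparison (29 were found in mouse, where SUPT16H goes by another symbol). WT and KO had promoter peaks at 5 of them each (17.2%, against 11.3% and 16.0% of all genes). The shControl list had 13 (44.8%, against 14.7%), shDdx5 14 (48.3%, against 23.1%) and the no-antibody list 0 (all genes 1.24%). In HEK293, IgG had 1 (3.33%, against 5.59%) and FLAG-MCM8 3 (10%, against 12.0%). S9.6 had 15 (50%, against 30.1%) and RNH1 13 (43.3%, against 24.6%). The FLAG-MCM8 share was thus below that of all genes, unlike that of the 50. Asf1b, a histone chaperone, had one in all 4 S9.6 MEF lists. The WT and KO counts of these genes were equal, unlike those of the 50, where KO had 8 more.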

How the data were processed

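The deposited files are narrowPeak lists, 1 per library. Per the study's methods the authors mapped reads with Bowtie2 to mm10 (MEFs) or hg38 (HEK293) and called peaks with MACS2, without the no-antibody track as input in MEFs. The submitters' processing notes name Trimmomatic, Bowtie2 and MACS2 2.1.2, and the methods a later MACS2 release. The methods give a fold and p filter for HEK293 peaks, which the deposited S9.6 and RNH1 lists, with folds down to 1.79 and 1.72, had not passed. The calling threshold of the deposited lists, duplicate removal and any use of IgG as input are not given in the sources used here. The values deposited by the authors are a fold enrichment (a ratio of pileup to local background) and the −log10 of the p-value and q-value at the summit, so they depend on library depth.

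TSSs came from all transcripts of protein-coding genes in GENCODE M21 and v44. The 50 genes, the role groups and the comparison lists were chosen with earlier results of these data known. Genes were named by a rule on the pattern of their promoter peaks: a peak in all S9.6 MEF lists, in all of FLAG-MCM8, S9.6 and RNH1, in 1 list of a pair only, in a control, or among the 3 strongest of a list. The pileup k and background were solved from the fold, (k + 1) over (background + 1), and its Poisson p. Promoter assignment and this step were tested on simulated data, and recovered 100% of 200 placed peaks per species and of 932 pileups. With 1 library per group no test was made. Shares stand beside those of all protein-coding genes. Intervals on the pileup are 95% Poisson intervals and cover counting error only, since PCR copies may be among the fragments. Analyses used Python 3.11.15, pandas 2.3.3, numpy 2.4.6 and scipy 1.17.1.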

Additional observations from a re-analysis of the deposited data

Results flagged for a closer look

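Some promoter peaks went one way from WT to KO and the other way from shControl to shDdx5, which was not tested, with 1 library per group. Gmnn, Rpa1 and Wdhd1 (3 of the 50 genes, 6%, against 173 or 0.789% of all genes) had a peak in KO and shControl and none in WT or shDdx5. Gmnn had 7 fragments in KO and 9 in shControl, Rpa1 9 and 11, and Wdhd1 12 and 11, and the KO and shControl peaks overlapped at Wdhd1 alone. WT had a peak of 10 fragments with its summit 974 bases from a Wdhd1 start, which counts as a promoter peak when summits are used, and Wdhd1 then leaves this pattern. Mcm7 and Rrm2 (2 genes, 4%, against 313 or 1.43% of all genes) had a peak in WT and shDdx5 and none in KO or shControl. Mcm7 had 12 fragments in WT and 16 in shDdx5, and Rrm2 10 and 19, and at both genes the peaks overlapped.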

How the results depend on the processing

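The signs of the 5 differences between lists were kept under the 11 alternatives tried for promoter counts (10 for those from IgG), except that shDdx5 less shControl (7 genes) was 0 with a fold of at least 4 (range 0 to 8); KO less WT (8 genes) ranged from 4, with the same number of strongest peaks, to 10, FLAG-MCM8 less IgG (9) from 6 to 10, S9.6 less IgG (23) from 20 to 23, and S9.6 less RNH1 (4) from 2 to 8. With a q of 0.05 or lower the promoter counts were 5 in WT (against 6.32% of all genes), 11 in KO (9.80%) and 0 without antibody (0.128%). With a fold of at least 4 they were 3 in WT (against 4.48% of all genes), 9 in KO (7.02%), 9 in shControl (5.58%), 9 in shDdx5 (11.3%) and 0 without antibody (0.315%). IgG had 5 with a 3 kb window (against 11.2% of all genes) and 1 with protein-coding transcripts only (against 3.62%). With 1 start a gene, outermost or shared by most transcripts, both chosen after seeing the data, IgG had 1, FLAG-MCM8 7, and FLAG-MCM8 with S9.6 4. Gene-body counts with a q of 0.05 or lower were 1 in WT, and 0 in KO, shControl and without antibody, and with 3 kb taken out 1 in WT, 2 in shControl, 0 without antibody and 8 in RNH1. Shares of all genes are not given for these gene-body settings. The cause was not tested where fewer peaks or starts do not show it. The other 111 counts stayed within 1.5 times. Intervals on the difference in share included 0 for KO less WT, shDdx5 less shControl and S9.6 less RNH1. They treat the genes as independent and the lists of a pair as separate sets of genes. With 1 library per group, they do not show how far a difference would move between libraries. Replicate libraries could not be paired because each group has 1 library. The pairing of genes between 2 lists is given as counts in both lists and in each alone, and was not tested. Depth limits the MEF counts, with promoter peaks at 7 to 47 fragments with S9.6 and 4 without antibody.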
